A study of Mus musculus with 4 samples.

Results

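The 10 genes described here are the EGF receptor family, 5 of its ligands and an inhibitor, measured by RNA sequencing of sorted intestinal cells from mice on a high-fat or a control diet. They were chosen by name: the receptors Egfr, Erbb2, Erbb3 and Erbb4, the ligands Areg, Ereg, Tgfa, Hbegf and Btc, and the receptor inhibitor Errfi1. All 10 were found among the 38124 gene IDs of the count tables, and 6 of them (Egfr, Erbb2, Erbb3, Tgfa, Btc and Errfi1) had at least 20 counts in at least 2 libraries, the minimum for a test. The other 4 (Erbb4, Areg, Ereg and Hbegf) are described by their counts. Cells were sorted by their GFP level from C57BL/6 male mice of 71 weeks, and the series compares diets within stem cells and within progenitors. The groups were GFP-high cells of mice on the high-fat diet (HFD), GFP-low cells of mice on the HFD, GFP-high cells of mice on the normal diet (control, labelled WT) and GFP-low cells of control mice. The labels call GFP-high cells intestinal stem cells and GFP-low cells progenitors. Each library was a pool of 2 to 5 mice, and each group had 1 library, so no value has a replicate of its own group. The labels name neither the gene that drives GFP nor the make-up of the diets, and do not say whether the GFP-high and GFP-low pools of a diet shared mice.

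The receptors of this family are tyrosine kinases that pair with each other when a ligand binds, and they signal to growth and survival mainly through the RAS-ERK and PI3K-AKT routes. The ligands are made as membrane proteins and are released by proteases. EGF is a standard component of intestinal organoid medium, and in the mouse crypt Paneth cells beside the stem cells are known to make EGF and TGF alpha, while LRIG1 and ERRFI1 hold the receptors back.

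The 4 ligand genes Epgn, Ereg, Areg and Btc lie in a row on mouse chromosome 5, and the start sites of the family differ in sequence. In GENCODE M21 on GRCm38, Ereg spans chr5:91074622-91093646, Areg chr5:91139599-91148432 (both on the plus strand) and Btc chr5:91357261-91402994 (minus strand). No other protein-coding gene lies between neighbours in this row, and the gaps are 39.4 kb from Epgn to Ereg, 46.0 kb from Ereg to Areg and 208.8 kb from Areg to Btc. Egfr spans chr11:16752203-16918158 on the plus strand. RefSeq promoter windows of 250 bases before to 50 bases after the start (GRCm38.p6) were present for 7 of the 10 genes. The windows of Egfr, the receptor that differed between the fractions, of Tgfa, the ligand with the most counts, of Areg, a ligand at the detection limit, and of the start of Errfi1 farther along the gene are shown, all on the plus strand and 5′ to 3′, with matches to the motifs searched in capitals.
Egfr, chr11:16751953-16752252: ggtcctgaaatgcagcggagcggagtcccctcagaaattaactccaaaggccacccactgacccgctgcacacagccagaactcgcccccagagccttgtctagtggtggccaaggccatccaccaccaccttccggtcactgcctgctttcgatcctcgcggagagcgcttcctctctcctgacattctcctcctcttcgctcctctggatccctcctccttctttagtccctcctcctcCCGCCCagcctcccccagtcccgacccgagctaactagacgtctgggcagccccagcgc
Tgfa, chr6:86194972-86195271: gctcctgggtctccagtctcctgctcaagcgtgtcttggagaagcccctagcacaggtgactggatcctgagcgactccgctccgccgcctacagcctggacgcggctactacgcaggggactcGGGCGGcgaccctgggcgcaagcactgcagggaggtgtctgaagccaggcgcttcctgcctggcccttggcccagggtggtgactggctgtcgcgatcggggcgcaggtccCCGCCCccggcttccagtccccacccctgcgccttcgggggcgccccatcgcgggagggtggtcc
Areg, chr5:91139349-91139648: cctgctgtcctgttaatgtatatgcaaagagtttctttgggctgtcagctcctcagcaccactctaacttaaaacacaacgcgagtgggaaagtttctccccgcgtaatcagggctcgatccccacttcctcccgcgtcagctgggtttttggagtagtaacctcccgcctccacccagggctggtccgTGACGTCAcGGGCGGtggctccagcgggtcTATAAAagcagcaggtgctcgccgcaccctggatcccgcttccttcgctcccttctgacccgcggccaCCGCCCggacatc
Errfi1, chr4:150854820-150855119: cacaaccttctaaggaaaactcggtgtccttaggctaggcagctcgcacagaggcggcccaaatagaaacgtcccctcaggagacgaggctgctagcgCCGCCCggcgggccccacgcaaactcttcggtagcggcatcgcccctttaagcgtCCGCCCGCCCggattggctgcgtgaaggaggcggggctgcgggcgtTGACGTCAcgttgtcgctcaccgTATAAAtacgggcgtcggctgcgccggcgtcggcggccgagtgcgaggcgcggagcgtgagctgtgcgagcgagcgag

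Both strands were searched for the GC box (GGGCGG), the TATA box (TATAAA), the cyclic AMP response element or CRE (TGACGTCA), a TCF/LEF motif (CTTTGAT) and an AP-1 motif (TGANTCA). Areg held a CRE that begins 61 bases before the start, a GC box right behind it at 52 bases, and a TATA box at 31 bases, with another GC box after the start. This start of Errfi1 had a like layout, with a CRE at 51 bases and a TATA box at 28 bases before it, and 3 GC boxes, of which 2 overlap. Over all 32851 windows of this length, 1.79% held the CRE, 13.6% the TATA box, 35.7% the GC box and 0.17% both a CRE and a TATA box. The Egfr window held 1 GC box at 9 bases before the start and the Tgfa window 2 GC boxes, and neither held a TATA box or a CRE. The windows of Erbb2, Erbb4 and Btc, and the other Errfi1 window, held none of the 5 motifs. No member's window held the TCF/LEF motif (3.73% of all windows) or the AP-1 motif (7.81%). A match describes these letters and is no evidence of a factor at the site.

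Depth was 6207080 counts in GFP-high and 5327015 in GFP-low under HFD, against 5201394 in GFP-high and 4677389 in GFP-low under control. Levels are given as TMM-scaled CPM, which corrects for depth. For a gene with 0 counts the limit used was 3 counts, or 0.449 to 0.680 CPM. The exact 95% Poisson intervals of 0 counts reach somewhat higher, to 0.553 to 0.836 CPM. The GFP-high fraction matched its label, since all 6 stem cell markers rose in it. Their summed levels were 6905 and 7901 CPM in GFP-high (HFD and control) against 924 and 1260 CPM in GFP-low. No progenitor markers were examined, so the label of GFP-low was not checked. Markers of other epithelial cells were higher in GFP-low, where the 7 goblet genes summed to 17780 and 40510 CPM and the 7 Paneth genes to 1117 and 2252 CPM under HFD and control. In GFP-high the goblet genes summed to 3156 and 3557 CPM and the Paneth genes to 449 and 764 CPM. The 12 stromal and endothelial markers summed to 13 to 26 counts a library, with Col1a1, Col1a2, Col3a1, Dcn, Lum and Cdh5 at 0 in every library. The leukocyte markers summed to 90 and 91 counts in GFP-high under HFD and control, against 126 and 165 counts in GFP-low. Most of these were Itgam, with 67 and 60 counts in GFP-high against 101 and 131 in GFP-low (edgeR log2 -1.24, adjusted p = 9.84e-05), while Ptprc and Csf1r were at 0 in every library.

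Erbb3 and Erbb2 were the most abundant members, Egfr stood far below them, and Erbb4 was not detected. Per kilobase of annotated exon, a scale on which genes can be set against each other, Erbb3 averaged 62.4 ± 8.40 CPM per kb over the 4 libraries, Erbb2 31.9 ± 3.06 and Egfr 7.26 ± 1.64 (SD, n = 4 libraries of 4 different groups). The lowest Erbb3 library, at 53.6 CPM per kb, was above the highest Erbb2 library, at 36.2, and the lowest Erbb2 library, at 29.0, was above the highest Egfr library, at 8.66. Erbb3 binds neuregulins and has a weak kinase, and Erbb2 binds no known ligand and works as a partner of the other receptors. Erbb4, the other neuregulin receptor, had 0 counts in each of the 4 libraries. In the shallowest one the limit of 3 counts was 0.680 CPM, and the exact 95% Poisson interval reached 0.836 CPM.

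Below the receptors came Errfi1 and Tgfa, which did not differ beyond their spread. Errfi1, an adaptor that binds and inhibits the EGF receptor kinase, averaged 4.82 ± 0.666 CPM per kb, and Tgfa, a ligand of EGFR alone, 4.22 ± 0.683 (SD, n = 4 libraries of 4 groups). Their ranges overlapped, at 4.14 to 5.46 and 3.28 to 4.82 CPM per kb, and Errfi1 also overlapped Egfr, whose range was 5.24 to 8.66. Counted over the longest annotated transcript, Tgfa stood at 6.06 and Errfi1 at 5.67 CPM per kb, in the opposite order. Btc, which binds EGFR and ERBB4, averaged 1.68 ± 0.681 and Hbegf, a ligand of the same receptors, 0.615 ± 0.282 CPM per kb (SD, n = 4 libraries of 4 groups), again with overlapping ranges. Areg and Ereg were at or near the limit of detection. Areg, amphiregulin, had 2 counts in GFP-high and 0 in GFP-low under HFD, against 2 and 1 counts in the control fractions. Ereg, epiregulin, had 0 counts in GFP-high and 4 in GFP-low under HFD, against 6 and 0 counts in the control fractions, and 141 bases of its exons overlap Gm19610 on the opposite strand.

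**Figure D1:**
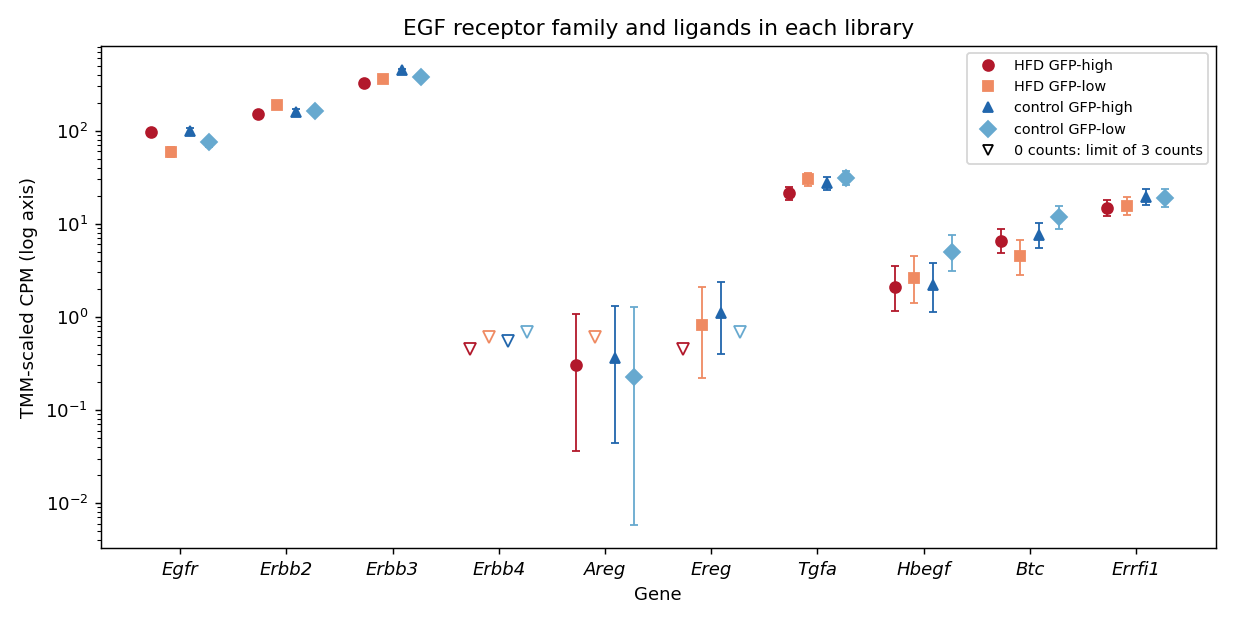
TMM-scaled CPM on a log axis of the 10 genes in the 4 libraries, with exact 95% Poisson intervals; open triangles stand for 0 counts and are drawn at the limit of 3 counts. Erbb3 lies between 323 and 444 CPM, whereas Erbb4, Areg and Ereg lie near or below 1 CPM.

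**Figure D2:**
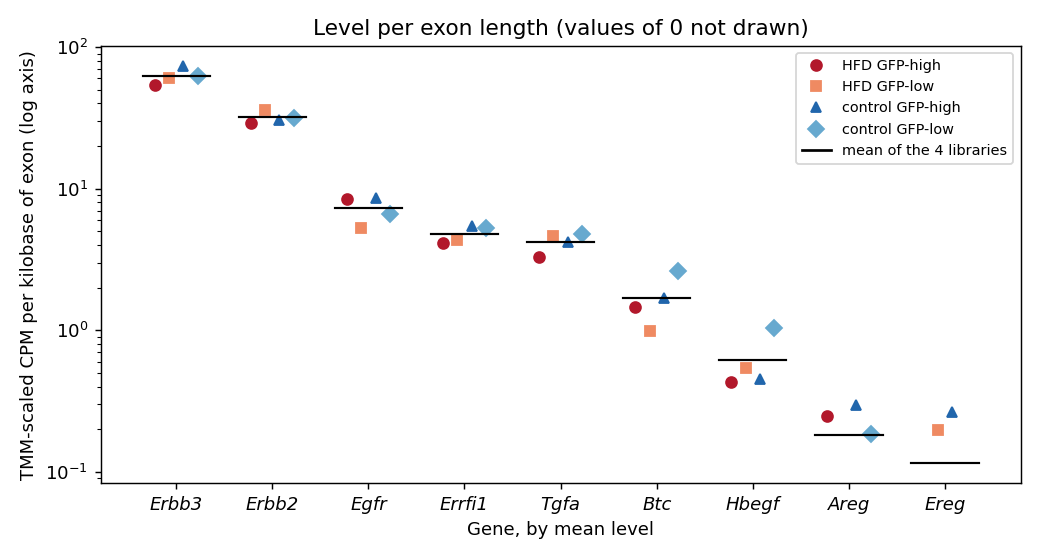
TMM-scaled CPM per kilobase of exon on a log axis, with 1 point a library and the mean of the 4 libraries as a line, genes ordered by mean. Erbb3 and Erbb2 stand apart from each other and from Egfr, while Egfr, Errfi1 and Tgfa form a run with overlapping neighbours.

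The fractions were compared to ask which members differ between stem cells and progenitors, with an edgeR quasi-likelihood test over all 4 libraries in which diet was a second term. Egfr alone of the 6 tested members passed. It stood at 96.5 CPM in HFD GFP-high and 98.1 CPM in control GFP-high, against 59.3 CPM in HFD GFP-low and 75.2 CPM in control GFP-low. Both GFP-high libraries were above both GFP-low libraries. Egfr rose 1.46-fold in GFP-high (edgeR log2 0.54 ± 0.12 SE, adjusted p = 0.0012), and DESeq2's Wald test gave a like size without passing (log2 0.55, adjusted p = 0.0596). Of all 10694 genes tested, 47.6% passed this comparison, 22.0% higher and 25.6% lower in GFP-high, so 1 of 6 members is a share below the background. With scaling by library totals 3633 genes were higher and 1903 lower, against 2350 and 2740 with TMM, because the median log2 ratio of all genes moved by 0.192, and Egfr stood 0.54 above that shift. In RNA of pooled cells, fewer cells of a type and less RNA per cell cannot be told apart.

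The other receptors did not pass between the fractions. Erbb2 had 151 and 160 CPM in GFP-high under HFD and control, against 189 and 164 CPM in GFP-low (edgeR log2 -0.18 ± 0.10 SE, adjusted p = 0.16; the log2 value was 0.013 with library totals). Erbb3 had 323 and 444 CPM in GFP-high under HFD and control, against 361 and 373 CPM in GFP-low (edgeR log2 0.043 ± 0.11 SE, adjusted p = 0.775). The Erbb3 libraries overlapped between the fractions, since the GFP-high values lay on either side of the GFP-low values. Within HFD the log2 ratio of Erbb3 was -0.16 (exact 95% counting interval -0.26 to -0.073) and within control 0.25 (0.16 to 0.34), or 0.049 and 0.42 with library totals, and this difference has no test because each group is 1 library.

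None of the tested ligands passed between the fractions, and neither did the inhibitor. Tgfa had 21.3 and 27.2 CPM in GFP-high under HFD and control, against 30.0 and 31.3 CPM in GFP-low. On the TMM scale both GFP-high libraries were below both GFP-low libraries, but the difference did not pass (log2 -0.35 ± 0.15 SE, edgeR adjusted p = 0.0744). With library totals control GFP-high lay above HFD GFP-low, and the log2 value was -0.16 (edgeR adjusted p = 0.412). The counting interval of the log2 ratio was -0.84 to -0.15 within HFD, and within control it included 0, at -0.55 to 0.14. Tgfa exons share 118 bases with Gm43917 on the opposite strand. Btc had 6.59 and 7.60 CPM in GFP-high under HFD and control, against 4.45 and 11.8 CPM in GFP-low, so the GFP-low libraries enclosed the GFP-high ones (log2 -0.11 ± 0.34 SE, edgeR adjusted p = 0.821; the log2 value was 0.084 with library totals). Errfi1 had 14.8 and 19.6 CPM in GFP-high under HFD and control, against 15.6 and 19.0 CPM in GFP-low (edgeR log2 -0.015 ± 0.19 SE, adjusted p = 0.959; the log2 value was 0.18 with library totals). Hbegf had 14 and 12 counts in GFP-high under HFD and control, against 13 and 22 counts in GFP-low. Its log2 ratio within control was -1.04 (interval -2.35 to -0.12) and within HFD -0.27 (-1.52 to 0.88). None of the 6 tested members differed at least 2-fold between the fractions in either diet, where 15.1% of tested genes did so within HFD and 14.6% within control.

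**Figure D3:**
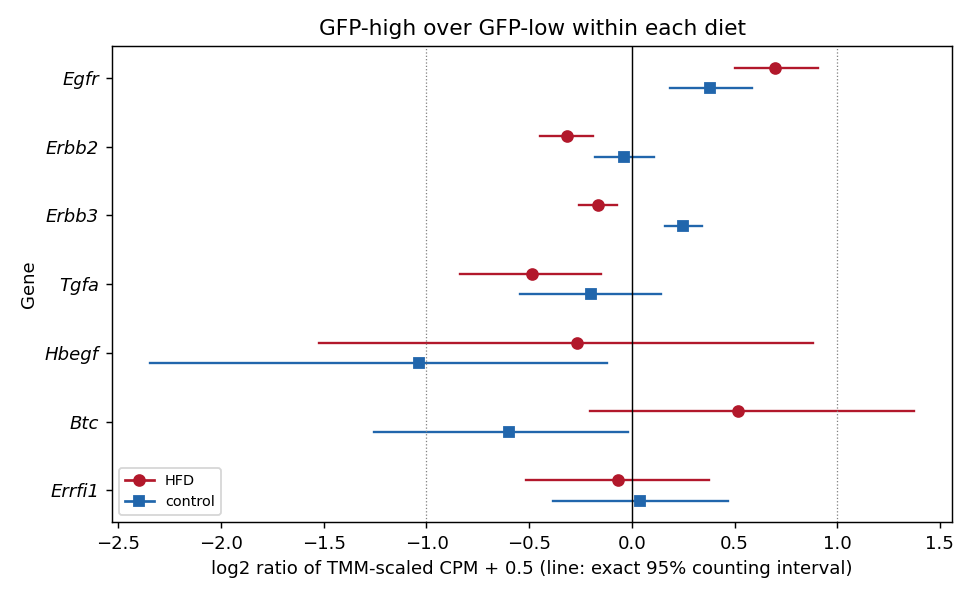
GFP-high to GFP-low ratio (log2) of 7 members within HFD (above) and within control (below), on TMM-scaled CPM + 0.5, with exact 95% counting intervals and dotted lines at 2-fold. Egfr lies to the right of 0 in both diets, at 0.70 and 0.38, and Erbb3 lies on opposite sides of 0, which it does not with library totals (0.049 and 0.42).

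The diets were compared over both fractions to ask whether a high-fat diet shifts any member. None of the 6 tested members passed, by edgeR or by DESeq2, and 2 of them (Erbb3 and Btc) had an unadjusted edgeR p under 0.05. Over all genes 6.46% passed, 2.96% higher and 3.50% lower under HFD, a share at which 0 of 6 says nothing particular about the members. The median log2 ratio of the 6 was -0.23, against 0.010 for all tested genes, and Erbb2 was the exception above 0. Should the GFP-high and GFP-low pools of a diet share mice, the p-values for diet are too small.

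Erbb3 was lower under HFD mainly in the GFP-high library. It had 323 CPM in HFD GFP-high against 444 CPM in control GFP-high, and 361 CPM in HFD GFP-low against 373 CPM in control GFP-low. The log2 ratio was -0.46 in GFP-high (interval -0.54 to -0.38) and -0.045 in GFP-low (-0.14 to 0.052), and over both fractions it did not pass (-0.25 ± 0.11 SE, edgeR adjusted p = 0.208). Egfr was nearly level in GFP-high, at 96.5 CPM under HFD against 98.1 CPM in control (log2 ratio -0.024, interval -0.19 to 0.14). In GFP-low it had 59.3 CPM under HFD against 75.2 CPM in control (log2 ratio -0.34, interval -0.58 to -0.11). Over both fractions Egfr did not pass (log2 -0.17 ± 0.12 SE, edgeR adjusted p = 0.448). Erbb2 was slightly higher under HFD in GFP-low, at 189 against 164 CPM (log2 ratio 0.20, interval 0.058 to 0.34), and not in GFP-high, at 151 against 160 CPM (-0.082, interval -0.21 to 0.050). Over both fractions Erbb2 stood at log2 0.057 ± 0.10 SE (edgeR adjusted p = 0.808). Whether the diet ratios of Erbb3, Egfr and Erbb2 differ between the fractions was not tested, since each group is 1 library.

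Btc, betacellulin, was the tested member with the largest difference between the diets, and its ratio lay farther from 0 in GFP-low than in GFP-high. It had 4.45 CPM (22 counts) in HFD GFP-low against 11.8 CPM (52 counts) in control GFP-low, a log2 ratio of -1.31 (interval -2.19 to -0.66). In GFP-high it had 6.59 CPM (44 counts) under HFD against 7.60 CPM (42 counts) in control, a log2 ratio of -0.19 (interval -0.85 to 0.44). These intervals overlapped, and the difference between the fractions was not tested because each group is 1 library. Over both fractions Btc did not pass (log2 -0.75 ± 0.34 SE, edgeR adjusted p = 0.219). Btc was the 1 of 6 tested members past 2-fold within GFP-low, where 3.96% of tested genes were, and 0 of 6 were past it within GFP-high, where 2.30% were. Markers of other cells moved between the same GFP-low libraries: the 7 goblet genes summed to 17780 CPM under HFD against 40510 CPM in control, the 7 Paneth genes to 1117 against 2252 CPM, and the 8 enterocyte genes to 6541 against 2492 CPM, and their part in the Btc and Egfr values was not tested.

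The remaining ligands and the inhibitor showed smaller or uncertain diet differences. Tgfa had 21.3 CPM in HFD GFP-high against 27.2 CPM in control GFP-high (log2 ratio -0.34, interval -0.69 to -0.011), and 30.0 CPM in HFD GFP-low against 31.3 CPM in control GFP-low (-0.061, interval -0.41 to 0.28). Over both fractions Tgfa stood at log2 -0.21 ± 0.15 SE (edgeR adjusted p = 0.491). Errfi1 had lower values under HFD in both fractions, at 14.8 against 19.6 CPM in GFP-high and 15.6 against 19.0 CPM in GFP-low. Both HFD values lay below both control values. Each counting interval of its log2 ratio included 0, at -0.81 to 0.0085 in GFP-high and -0.75 to 0.17 in GFP-low. Over both fractions Errfi1 did not pass (log2 -0.35 ± 0.19 SE, edgeR adjusted p = 0.326). Hbegf, heparin-binding EGF, had 2.10 CPM (14 counts) in HFD GFP-high against 2.17 CPM (12 counts) in control GFP-high, and 2.63 CPM (13 counts) in HFD GFP-low against 4.98 CPM (22 counts) in control GFP-low. Both Hbegf intervals included 0, at -1.27 to 1.19 in GFP-high and -2.03 to 0.13 in GFP-low. Ereg had 0 counts in HFD GFP-high against 6 in control GFP-high, and 4 counts in HFD GFP-low against 0 in control GFP-low. Because 1 count of each pair was 0, no fold or interval of the ratio is given. The separate 95% Poisson intervals of the Ereg levels overlapped in both fractions, which does not show that the levels were equal. Summed over the 5 ligands, the counts were 202 in HFD GFP-high and 187 in HFD GFP-low, against 212 in control GFP-high and 213 in control GFP-low, or 30.3 and 37.8 CPM against 38.4 and 48.3 CPM.

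**Figure D4:**
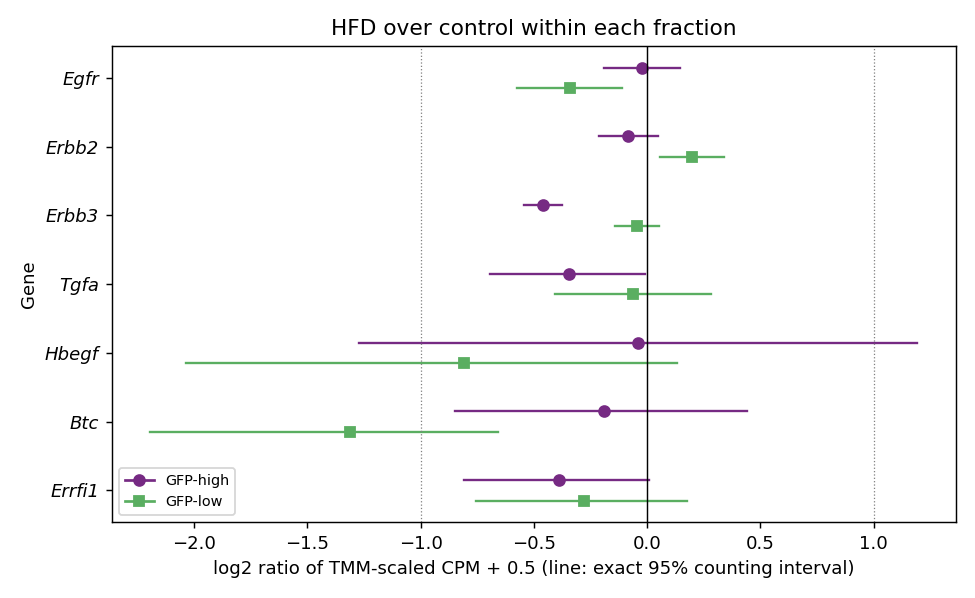
Log2 ratio of HFD over control for 7 members within GFP-high (above) and within GFP-low (below), on TMM-scaled CPM + 0.5, with exact 95% counting intervals and dotted lines at 2-fold. Erbb3 is displaced in GFP-high at -0.46, and Egfr and Btc in GFP-low at -0.34 and -1.31.

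The profile of Btc over the 4 libraries was set beside those of all other genes, since its log2 level spanned 1.31, the only tested member to span at least 1. Among 8775 genes with a mean of at least 10 CPM, the nearest by Euclidean distance of centred log2 profiles were Med10 (distance 0.225), Muc3a (0.249) and Fgfr2 (0.250). Fgfr2, a receptor for fibroblast growth factors, had 71.2 CPM in HFD GFP-high and 48.8 CPM in HFD GFP-low, against 69.3 CPM in control GFP-high and 101 CPM in control GFP-low. Muc3a, a membrane mucin of the brush border, had 66.8 and 57.7 CPM in HFD GFP-high and HFD GFP-low, against 91.4 and 142 CPM in the controls. Likeness over 4 libraries is a description.

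Of 6 other ligands of the EGF family, 2 had enough counts for a test. Nrg4 rose in GFP-high and under HFD, and Egf, tested only through its GFP-low counts, was lower in GFP-high. Over all tested genes 47.6% were called between the fractions and 6.46% for diet. Nrg4, neuregulin 4, a ligand of ERBB4, had 16.3 CPM (109 counts) in HFD GFP-high and 9.71 CPM (48 counts) in HFD GFP-low, against 9.23 CPM (51 counts) in control GFP-high and 2.27 CPM (10 counts) in control GFP-low. It rose in GFP-high (edgeR log2 1.15 ± 0.32 SE, adjusted p = 0.00814) and under HFD (log2 1.22 ± 0.32 SE, edgeR adjusted p = 0.0328), and neither call held in DESeq2 (adjusted p = 0.059 and 0.312). The diet call was also lost in edgeR with DESeq2's size factors. Erbb4, its receptor, was the member with 0 counts throughout. Egf itself had 1.05 and 0.905 CPM in GFP-high under HFD and control, against 4.25 and 4.76 CPM in GFP-low, and fell in GFP-high (edgeR log2 -2.16 ± 0.46 SE, adjusted p = 0.00119, DESeq2 0.0596). Its counts were 7 and 5 in GFP-high against 21 and 21 in GFP-low. The Paneth, goblet, enterocyte and enteroendocrine marker sums were also higher in GFP-low in both diets. Paneth sums were lower under HFD, at 449 against 764 CPM in GFP-high and 1117 against 2252 CPM in GFP-low. Egf was not called for diet (edgeR log2 -0.063, adjusted p = 0.959). The part of these cell types in the Egf difference was not tested. Of the other 4 ligands in this list, Nrg1 and Nrg2 had 0 counts in every library, Nrg3 had 1 count in 1 library, and Epgn, the end gene of the chromosome 5 row, had 2 counts in 1 library.

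Of 7 genes that act in or on the release of ligands, among them the inhibitor Timp3, 1 rose in GFP-high and 3 fell. The share called was 57.1%, against 47.6% of all tested genes (22.0% higher and 25.6% lower). The median log2 ratio was -0.11 against -0.00068 for all tested genes, and with library totals 2 rose and none fell. Rhbdf1, an inactive rhomboid that helps ADAM17 mature, had 27.0 and 42.2 CPM in GFP-high under HFD and control, against 16.2 and 16.1 CPM in GFP-low, and rose (log2 1.07 ± 0.18 SE, edgeR adjusted p = 0.000211). The genes that fell were Rhbdl2, a rhomboid protease (log2 -0.76, edgeR adjusted p = 0.0435), and the metalloproteases Adam9 (log2 -0.38, edgeR adjusted p = 0.0209) and Adam10 (log2 -0.28, edgeR adjusted p = 0.035, named after its values were seen), and none of these 3 passed in DESeq2. Adam17, the main sheddase of TGF alpha, also named after its values were seen, was not called (edgeR log2 0.084 ± 0.14 SE, adjusted p = 0.651). Under HFD 1 of 7 rose (14.3% called, against 6.46% of all tested genes). This was Timp3, an inhibitor of ADAM17 (2.46-fold, edgeR adjusted p = 0.0191, DESeq2 0.297). Timp3 had 14.1 and 10.3 CPM in HFD GFP-high and HFD GFP-low, against 7.24 and 2.72 CPM in the controls.

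Of 12 genes that restrain the receptors, 1 rose in GFP-high and 2 fell, with a median log2 ratio of -0.070. The share called was 25%, against 47.6% of all tested genes. With library totals 2 rose and 1 fell. Lrig1, a membrane protein that drives receptors of this family to degradation and is itself a marker of intestinal stem cells, had 295 and 294 CPM in GFP-high under HFD and control, against 131 and 132 CPM in GFP-low. It rose in GFP-high (edgeR log2 1.17 ± 0.096 SE, adjusted p = 8.71e-08) and was not called for diet (log2 -0.0033 ± 0.095 SE, edgeR adjusted p = 0.994). Cblc, a ubiquitin ligase of the receptors, and Ptpn1, a phosphatase, fell in GFP-high (log2 -0.54 and -0.38, edgeR adjusted p = 0.00384 and 0.0315), and neither passed in DESeq2. Under HFD 1 of 12 fell (8.33% called, against 6.46% of all tested genes). This was Ptprj, a receptor-type phosphatase (log2 -1.03 ± 0.12 SE, edgeR adjusted p = 3.97e-05). Ptprj had 36.6 and 46.9 CPM in HFD GFP-high and HFD GFP-low, against 79.3 and 90.4 CPM in the controls.

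In the route from adaptors to ERK, 2 of 20 genes rose in GFP-high and 5 fell (4 rose with library totals). Over all tested genes 47.6% were called between the fractions and 6.46% for diet, against 35% and 0% of this list. None of the 20 was called for diet by edgeR with the minimum of 20 counts or by DESeq2 (3 had an unadjusted edgeR p under 0.05). With no low-count filter, or with at least 100 counts in 2 libraries, edgeR called 1 of them lower under HFD. Gab1, a docking protein behind the receptors, rose (log2 0.58 ± 0.14 SE, edgeR adjusted p = 0.00316), as did Nf1, which switches RAS off (log2 0.33, edgeR adjusted p = 0.019), and neither passed in DESeq2. Ksr1, the scaffold of the kinase cascade, had 34.3 and 51.0 CPM in GFP-high under HFD and control, against 80.3 and 82.0 CPM in GFP-low, and fell (log2 -0.95 ± 0.14 SE, edgeR adjusted p = 8.03e-05). The others that fell were Map2k1 (log2 -0.65) and, named after their values were seen, Hras (-0.62), Map2k2 (-0.56) and Mapk3 (-0.56), with edgeR adjusted p of 0.00162, 0.00148, 0.000219 and 0.000164. Map2k1 and Hras did not pass in DESeq2 (adjusted p = 0.0881 and 0.0942).

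In the PI3K, AKT and phospholipase list, 2 of 10 genes rose in GFP-high and 4 fell, with a median log2 ratio of -0.17. The share called was 60%, against 47.6% of all tested genes. With library totals 3 rose and 1 fell, and without diet in the model 2 rose and 0 fell. Pik3r1, the main regulatory subunit of PI3K, had 315 and 372 CPM in GFP-high under HFD and control, against 192 and 199 CPM in GFP-low, and rose (log2 0.81 ± 0.098 SE, edgeR adjusted p = 5.55e-06). Plcg1, a phospholipase that docks on activated receptors, rose too (log2 0.64, edgeR adjusted p = 0.00228, DESeq2 0.0938). Stat3 fell in GFP-high and also under HFD: it had 32.8 and 69.0 CPM in GFP-high under HFD and control, against 63.1 and 109 CPM in GFP-low (fraction log2 -0.79 ± 0.12 SE, edgeR adjusted p = 5.78e-05, diet log2 -0.92 ± 0.12 SE, edgeR adjusted p = 0.000141). Pik3cb, a catalytic subunit, fell in GFP-high (log2 -0.56, edgeR adjusted p = 0.0138, DESeq2 0.262). Stat3 was the 1 call of 10 for diet (10%, against 6.46% of all tested genes).

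Among genes that ERK signalling is known to induce, 15 of 20 were tested. In GFP-high 5 rose and 2 fell, with a median log2 ratio of 0.32. The share called was 46.7%, against 47.6% of all tested genes. With library totals 8 rose and 2 fell, with DESeq2 2 rose and 1 fell, and without diet in the model 1 rose and 1 fell. Etv4, an ETS transcription factor, had 11.2 CPM (75 counts) in HFD GFP-high and 4.05 CPM (20 counts) in HFD GFP-low, against 3.62 CPM (20 counts) in control GFP-high and 1.36 CPM (6 counts) in control GFP-low. It rose in GFP-high (edgeR log2 1.45 ± 0.37 SE, adjusted p = 0.00415) and under HFD (log2 1.61 ± 0.37 SE, edgeR adjusted p = 0.0136), with neither call held in DESeq2 (adjusted p = 0.111 and 0.45). Myc, which is also a Wnt target, had 188 and 305 CPM in GFP-high under HFD and control, against 71.0 and 122 CPM in GFP-low. It rose in GFP-high (edgeR log2 1.36 ± 0.099 SE, adjusted p = 2e-08) and fell under HFD (log2 -0.74 ± 0.098 SE, edgeR adjusted p = 0.000157). Dusp5, a phosphatase of ERK, and Fos, an immediate early factor, fell in GFP-high (log2 -2.15 and -1.15, edgeR adjusted p = 0.00011 and 0.00322), Fos without passing in DESeq2 (adjusted p = 0.0724). Dusp5 had 17 and 10 counts in GFP-high under HFD and control, against 51 and 41 counts in GFP-low. It thus reached the minimum of 20 counts only in GFP-low, and with no low-count filter edgeR also called it (adjusted p = 1.23e-07). For diet 1 of 15 rose (Etv4) and 1 fell (Myc), or 13.3% called against 6.46% of all tested genes. The median log2 ratio for diet was -0.22, and members of this list went both ways in each comparison.

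**Figure D5:**
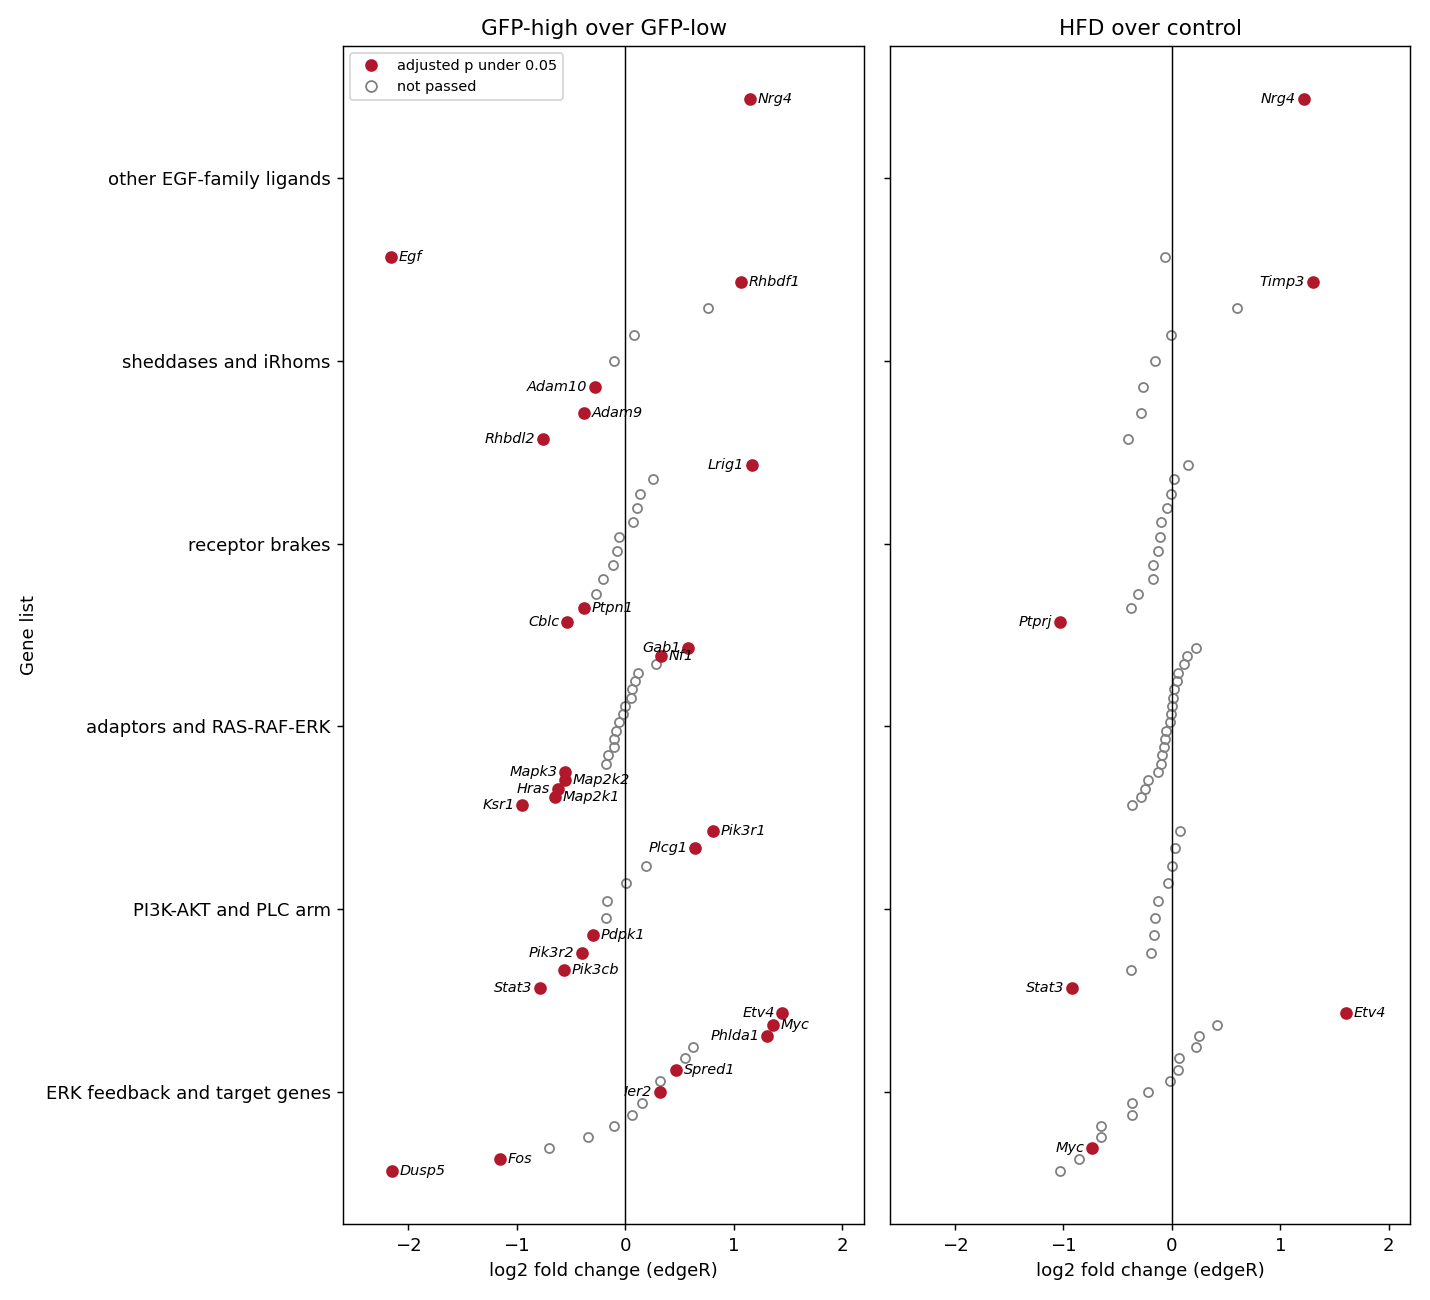
edgeR log2 fold change of each tested gene in 6 lists of the pathway, for GFP-high over GFP-low (left) and HFD over control (right); filled and named points passed an adjusted p of 0.05. The fraction panel holds 29 calls and the diet panel 6. Over all tested genes 47.6% were called between the fractions and 6.46% for diet.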

How the data were processed

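The authors deposited raw counts of reads per gene for 4 libraries, per the labels 1 for each diet and fraction, made from poly(A) RNA of sorted cells with a strand-specific dUTP kit. Tools named in the submitters' processing notes are cutadapt, HTSeq and TopHat (version 1.4.1), with the builds GRCm38 and mm10. Neither the annotation used nor how the counting treated strand is stated there, so overlapping genes may share reads. Of 38124 gene IDs, 36345 matched a symbol. Lengths and positions are from GENCODE M21 (GRCm38).

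Counts were scaled by TMM over all genes (edgeR 4.0.16, R 4.3.3). Genes reaching 20 counts in 2 libraries or more, 10694 in all, were tested with edgeR's robust quasi-likelihood F-test, two-sided, in an additive model of diet and fraction, with Benjamini-Hochberg adjustment at 0.05 over all genes tested. It leaves 1 residual degree of freedom, any difference in diet effect between the fractions enters the spread, and the p-values reflect just how these libraries scatter, which may be technical. Standard errors were derived as the log2 fold change over the root of F. Within a fraction or diet there was no test: log2 ratios of CPM + 0.5 understate changes of low genes, and exact 95% intervals are those of the ratio of 2 Poisson counts without the added 0.5. Without molecular identifiers, these intervals and the 3-count limits cover counting error only. The scripts were tested on simulated data. DESeq2 1.42.0, other scalings and other filters were tried as alternatives. The members and gene lists were chosen with earlier results of these data known. Named were all members, the called genes of each list with the largest differences (up to 2 each way), all other EGF-family ligands, and the 3 genes most like a tested member that spans at least 1 on the log2 scale.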

Additional observations from a re-analysis of the deposited data

Results flagged for a closer look

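Erbb3 differed between GFP-high and GFP-low in opposite directions in the diets, each counting interval leaving out 0. On the log2 scale its GFP-high to GFP-low ratio was -0.16 within HFD and 0.25 within control. The difference between these ratios was not tested, since each group is 1 library. With scaling by library totals the ratios were 0.049 and 0.42, so they were no longer on opposite sides of 0.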

How the results depend on the processing

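No member was called for diet under any of the 6 alternatives run. Egfr between the fractions kept its direction and its call under 5 of 6 (log2 0.53 to 0.73), with adjusted p from 2.16e-05 to 0.0596 over all 6, and DESeq2's Wald test called 0 members. With library totals the uncalled fraction values of Erbb2, Btc and Errfi1 changed sign, to 0.013, 0.084 and 0.18, because that scaling moved the median of all genes by 0.192. Of the pathway genes, 29 were called between the fractions, 10 with DESeq2 and 13 without diet in the model. For diet 6 were called, 3 with DESeq2 and 0 without fraction in the model. Measured over the longest transcript, 2 members changed places in the order of levels. Over all genes, edgeR called 5090 between the fractions, DESeq2 2390 and a model without diet 2948. For diet edgeR called 691, DESeq2 189, edgeR with no low-count filter 1158, and a model without fraction 0, with 149 genes at an unadjusted p under 0.05. Apart from what the construction of an alternative shows, the cause was not tested. No paired analysis was possible because each group has 1 library and the labels give no replicate numbers. Leaving out a library leaves no residual degree of freedom, so the ratios within a fraction or diet take its place. Counts of 22 to 52 for Btc and 12 to 22 for Hbegf limit what can be said of them.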
